A study of Mus musculus with 6 samples.

Results

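Small RNAs that end without a poly(A) tail were followed in liver libraries made from poly(A) RNA of mice given 9/13-HODEs and of Ctrl mice. They were taken by gene symbol: the Snora, Snord, Scarna, Rnu and Rn7s series, with Rmrp and Rpph1. Of 179 gene models with such names, 121 had at least 1 count in any of the 6 libraries, out of 55401 models in the deposited table. These 121 members comprised 62 Snord, 37 Snora, 12 Rnu, 4 Scarna and 4 Rn7s models, with Rmrp and Rpph1 as the other 2.

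Male C57BL/6 mice of 8 weeks were injected intraperitoneally once a day for 9 days. The 9/13-HODEs group (HODEs) received an equal mixture of 9-HODE and 13-HODE, oxidized forms of linoleic acid, at 0.5 μg/g body weight in polyethylene glycol and water, and the Ctrl group received this solvent alone. Each group had 3 mice and 1 library per mouse (n = 3). Total counts were 71710457, 76686892 and 78615288 in HODEs replicates 1 to 3, against 73405800, 70300597 and 74018372 in Ctrl replicates 1 to 3. In counts scaled to a library total of 1000000 (CPM), 7 hepatocyte markers (Alb and others) summed to 140214 to 167829 CPM in HODEs livers and 149041 to 166368 CPM in Ctrl livers. In such bulk samples, fewer cells of a type and less RNA per cell cannot be told apart.

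Most RNAs of these classes are cut to a finished 3′ end instead of receiving a tail. C/D box small nucleolar RNAs (Snord) guide ribose methylation and H/ACA box RNAs (Snora) guide pseudouridylation, chiefly of ribosomal RNA, and most are processed out of introns of a host gene. Small Cajal body RNAs (Scarna) guide the same changes in the U RNAs of the spliceosome. The Rnu series holds these together with other U RNAs such as U3, which takes part in processing of ribosomal RNA. RNA polymerase III makes 7SL (Rn7s1, Rn7s2), the RNA of the signal recognition particle, and 7SK (Rn7sk), which holds the elongation factor P-TEFb inactive, as well as the RNAs of RNase P (Rpph1) and RNase MRP (Rmrp), which trim the precursors of transfer RNA and ribosomal RNA. A library made with oligo(dT) counts these RNAs only as far as they passed the selection.

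The sequences are given first for the RNAs on which the results turn, from the GENCODE M21 transcripts (GRCm38), 5′ to 3′ on the strand of the gene. Rn7s1 and Rn7s2, which are not printed, were identical over all 300 bases, so that a read could not tell them apart. Rn7s6 matched them from base 1 to base 214 with 3 differences and parted from them after that.

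The first 110 bases of Rn7sk (chr9:78175303-78175633, minus strand) are shown with GATC in capitals, the letters by which the 5′ hairpin is known to bind the HEXIM proteins. They occurred 3 times there, and on the given strand in 40.8% of the 179 named models and 33.2% of 8230 other transcripts of 60 to 250 bases. The other transcripts leave out only the named models, so they include unnamed snoRNA and snRNA models. Rmrp (chr4:43492788-43493058, minus strand, 271 bases) and the first 300 of the 319 bases of Rpph1 (chr14:50807449-50807767, minus strand) are shown with GGAANGTC in capitals. Of the 179 models, 3 held these letters, namely Rpph1 and the pair of overlapping Rmrp models, against 0.838% of the other transcripts.

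Rn7sk: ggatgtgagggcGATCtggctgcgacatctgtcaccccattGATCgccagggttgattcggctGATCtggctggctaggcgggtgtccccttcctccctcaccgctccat
Rmrp: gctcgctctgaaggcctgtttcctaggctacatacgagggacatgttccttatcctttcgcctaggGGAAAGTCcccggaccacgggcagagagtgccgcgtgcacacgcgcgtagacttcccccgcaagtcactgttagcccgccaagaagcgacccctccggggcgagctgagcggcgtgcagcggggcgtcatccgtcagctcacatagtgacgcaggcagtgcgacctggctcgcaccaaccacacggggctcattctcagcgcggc
Rpph1: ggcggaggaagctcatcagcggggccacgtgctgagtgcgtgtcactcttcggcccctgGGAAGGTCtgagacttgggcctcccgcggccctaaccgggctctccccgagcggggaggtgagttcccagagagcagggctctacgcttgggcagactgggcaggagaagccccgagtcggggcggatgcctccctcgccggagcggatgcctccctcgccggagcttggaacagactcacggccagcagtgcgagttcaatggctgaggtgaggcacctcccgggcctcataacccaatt

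Rnu2-10 (chr11:101658238-101658428, plus strand) encodes U2, which pairs with the branch site of introns through GTAGTA, in capitals. These letters occurred in 1 of the 179 models, and in 1.83% of the other transcripts, which include unnamed copies of U2. Snord104 (chr11:106500993-106501062, plus strand), Snord118 (chr11:69073427-69073561, plus strand) and Snord14e (chr9:40804748-40804837, plus strand) are shown with a C box (NTGATGA) and a D box (CTGA) in capitals. Snord104 and Snord118 were the most counted snoRNAs of their class, and Snord14e had the lowest log2 fold change of the Snord members with a mean count of at least 10.

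Rnu2-10: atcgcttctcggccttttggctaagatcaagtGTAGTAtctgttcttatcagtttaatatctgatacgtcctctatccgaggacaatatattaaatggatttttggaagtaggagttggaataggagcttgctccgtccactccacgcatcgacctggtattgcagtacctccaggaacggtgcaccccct
Snord104: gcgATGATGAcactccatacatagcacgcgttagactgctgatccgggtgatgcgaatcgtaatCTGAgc
Snord118: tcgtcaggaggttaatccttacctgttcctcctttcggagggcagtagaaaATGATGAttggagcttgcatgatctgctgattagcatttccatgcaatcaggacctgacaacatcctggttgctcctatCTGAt
Snord14e: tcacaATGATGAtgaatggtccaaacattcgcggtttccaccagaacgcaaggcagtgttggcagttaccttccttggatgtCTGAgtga

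The letters followed the class names. A C box occurred in 45 of 62 Snord members and in 0 of 37 Snora members, against 8.42% of the other transcripts. The other transcripts include unnamed snoRNA models, so these backgrounds hold some RNAs of the same families. CTGA within the last 15 bases occurred in 58 Snord members and 3 Snora members, against 9.74% of the other transcripts. ACA within the last 6 bases occurred in 34 Snora members and 3 Snord members, against 14.4% of the other transcripts. The H box letters (ANANNA) were in all 37 Snora members but also in 82.8% of the other transcripts. The longest run of A was 8 bases in any member, and the median member had a longest run of 3 bases, as had the median other transcript.

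Members were short and thinly counted. Their models ran from 62 to 414 bases with a median of 110, and 113 of the 121 were shorter than 250 bases, the lower end of the 250 to 350 base inserts of these libraries. In 26 members the estimate behind the deposited count stayed under 1 in every library, 59 had under 10 counts over all 6 libraries together, and 21 had a mean count of at least 10. The deposited counts were estimates rounded up, so a count of 1 stood for a median estimate of 0.345 to 0.417 reads across the libraries. A count of 10 or more was seen for 31, 22 and 23 members in HODEs replicates 1 to 3 and for 19, 20 and 16 members in Ctrl replicates 1 to 3.

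HODEs replicate 1 stood apart from the other 5 libraries. Members took 31593 counts there, against 2945 and 1250 in HODEs replicates 2 and 3 and 1605, 1131 and 902 in Ctrl replicates 1 to 3. Of 62 members with at least 10 counts in all, 22 were highest in this library. The main results below are therefore also given without it. Nuclear ribosomal RNA, another RNA without a tail, was likewise highest in HODEs replicate 1, followed by HODEs replicate 2 and Ctrl replicate 1, but was lowest in HODEs replicate 3: its 354 models summed to 20340, 2829 and 852 CPM in HODEs replicates 1 to 3 and to 1460, 869 and 936 CPM in Ctrl replicates 1 to 3. Nearly all of it fell on 1 model (CT010467, 1849 bases on chromosome 17, log2 fold change 2.94, adjusted p = 0.649 by edgeR). The part of this difference between libraries in the results was not tested. This set was chosen after its values were seen.

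Summed over a class, Rn7s and the pair of Rmrp and Rpph1 differed most between groups, and the snoRNA classes differed little. The Rn7s class summed to 411, 25.8 and 6.49 CPM in HODEs livers and to 10.8, 4.96 and 2.93 CPM in Ctrl livers. Its mean was 148 ± 228 CPM in HODEs livers and 6.24 ± 4.10 CPM in Ctrl livers (SD, n = 3 each), a 23.7-fold ratio of means that fell to 2.59-fold without HODEs replicate 1. HODEs replicate 3 lay below Ctrl replicate 1, so the groups overlapped.

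Rmrp and Rpph1 together summed to 15.3, 1.84 and 0.750 CPM in HODEs livers and to 0.327, 0.413 and 0.365 CPM in Ctrl livers, with no overlap. Of all genes tested below, 4.93% did not overlap in this direction. The ratio of means was 16.2-fold, and 3.52-fold without HODEs replicate 1. The Snora class summed to 3.64, 2.70 and 2.61 CPM in HODEs livers and to 2.15, 2.69 and 1.99 CPM in Ctrl livers, a 1.31-fold ratio, or 1.17-fold without HODEs replicate 1. The Snord class summed to 4.69, 4.72 and 3.37 CPM in HODEs livers and to 5.04, 4.55 and 4.38 CPM in Ctrl livers, a 0.915-fold ratio, or 0.869-fold without that library. In both snoRNA classes the groups overlapped.

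The Scarna class summed to 1.35, 0.952 and 0.445 CPM in HODEs livers and to 0.777, 0.313 and 0.527 CPM in Ctrl livers, a log2 ratio of means of 0.77, or 0.37 without HODEs replicate 1. The Rnu class summed to 4.74, 2.35 and 2.24 CPM in HODEs livers and to 2.74, 3.16 and 2.00 CPM in Ctrl livers. Its ratio of means changed direction with the library that stood apart, being 1.18-fold with all livers and 0.871-fold without HODEs replicate 1. The Rnu class had 340, 180 and 176 counts in HODEs livers and 201, 222 and 148 counts in Ctrl livers. Of these, the U3 genes Rnu3b1 to Rnu3b4 held 124, 153 and 161 in HODEs livers and 187, 211 and 126 in Ctrl livers. The class sums are descriptions, and no p-value was taken for them.

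**Figure D1:**
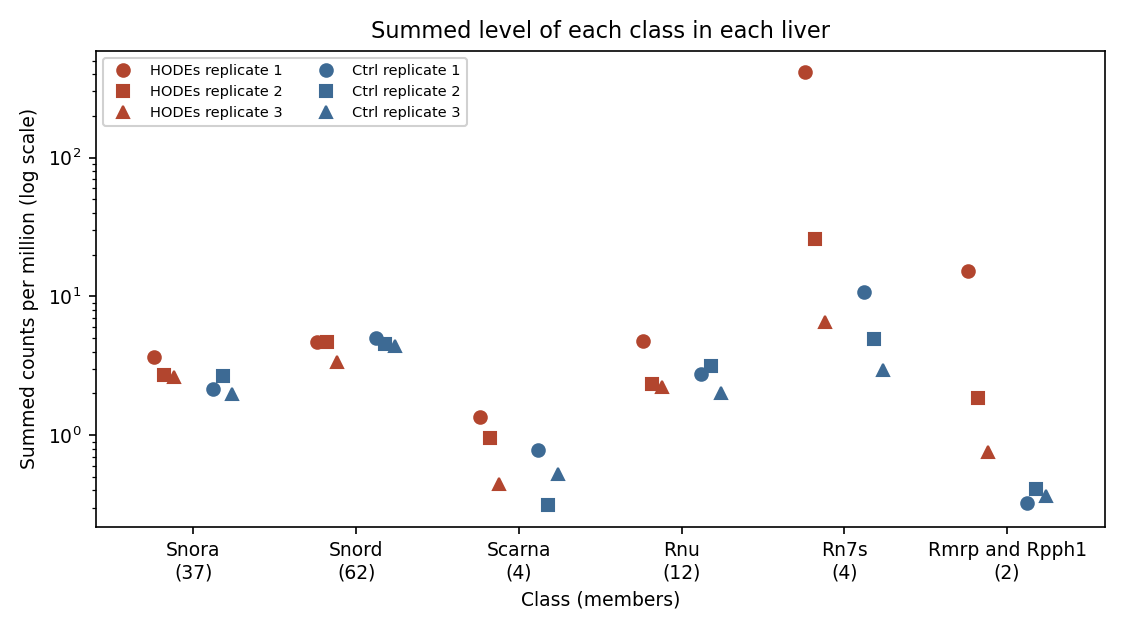
Summed CPM (log axis) of each class, with 1 symbol per liver, HODEs to the left of Ctrl in each class and the number of members in brackets. The Rn7s class and the pair of Rmrp and Rpph1 spread over more than a decade in HODEs livers, up to 411 and 15.3 CPM in HODEs replicate 1, while the Snora and Snord classes stay within 1.99 to 5.04 CPM in all 6 livers.

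For single genes, edgeR's quasi-likelihood test was fitted over the 14741 genes with a mean FPKM (fragments scaled to transcript length and depth) of at least 0.1. Of the 121 members 75 were tested, and 46 stayed below this filter. By this test 0 of the 75 had an adjusted p under 0.05, where 3 of all genes (0.0204%) did, and the lowest adjusted p of a member was 0.649. At an unadjusted p under 0.05, 6 members (8.00%) were higher in HODEs livers and 0 were lower, against 4.08% and 3.61% of all genes tested. These 6 include Rn7s1 and Rn7s2, which are identical in sequence. By DESeq2, 2 members had an adjusted p under 0.05, both higher, against 0.366% of all genes higher and 0.237% lower.

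Adding the fold threshold of the study, a log2 fold change beyond 0.65 in either direction, here taken on mean FPKM, to an unadjusted p under 0.05 kept the count at 6 higher and 0 lower, against 1.49% and 1.62% of all genes. In CPM, every HODEs liver was above every Ctrl liver in 7 members and below in 1 (Snord21), where 4.93% and 10.7% of all genes tested did not overlap in these directions. The 7 include Rn7s2, whose sum with the identical Rn7s1 overlapped between groups. In counts, Snord21 tied between livers of the groups at 1, and only the scaling to library totals parted them. Without HODEs replicate 1, 2 members were higher and 1 was lower at an unadjusted p under 0.05, against 2.93% and 3.16% of all genes.

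The median log2 fold change (HODEs over Ctrl) of the 75 members was 0.57, where the median of all genes was 0.0012. Without HODEs replicate 1 it was 0.15 over 74 members, against -0.0065 over all genes. Among the 21 members with a mean count of at least 10 the median was 0.21. It was 0.23 over 20 members without HODEs replicate 1. The filter was on the mean over all livers, so a member counted in HODEs replicate 1 alone, as Rn7s6 was, could pass it. By class, the medians were 4.28 for Rn7s, 4.43 for Rmrp and Rpph1, 0.84 for Scarna, 0.56 for Snora, 0.20 for Snord and -0.13 for Rnu. Without HODEs replicate 1 they were 1.15, 2.29, 0.55, 0.34, -0.02 and -0.11 in the same order. In each fit the Rnu median was the value of Rnu3b4, a U3 gene. The 67 tested members under 250 bases had a median of 0.44, and the 8 of 250 bases or more a median of 3.86. These medians were 0.09 and 1.66 without HODEs replicate 1, the second over 7 members. The longer ones were the 4 Rn7s members, Rmrp, Rpph1, Scarna2 and Scarna13, so that length and class cannot be told apart.

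Rpph1, the RNA subunit of RNase P, had 892, 108 and 47 counts in HODEs livers, against 24, 21 and 27 counts in Ctrl livers. Every HODEs liver was above every Ctrl liver, and HODEs replicate 1 held 85.2% of the group's counts. The log2 fold change was 3.93 ± 1.15 (SE) with an unadjusted p of 0.0122 and an adjusted p of 0.649 by edgeR, and DESeq2 gave an adjusted p of 0.00249. Without HODEs replicate 1 the edgeR value was 1.66 ± 0.47 (adjusted p = 0.783). An exact two-sided permutation test over the 6 livers gave p = 0.1, the smallest that 3 livers against 3 allow. In FPKM, Rpph1 averaged 13.8 ± 18.96 in HODEs livers and 0.907 ± 0.095 in Ctrl livers (SD, n = 3 each). Its model overlapped the start of Ccnb1ip1 on the same strand, which had 0 counts in all 6 libraries.

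Rmrp, the RNA of RNase MRP, had 207, 33 and 12 counts in HODEs livers, against 0, 8 and 0 counts in Ctrl livers. All HODEs livers were again above all Ctrl livers. The log2 fold change of Rmrp was 4.93 ± 1.64 (SE, adjusted p = 0.649 by edgeR, exact permutation p = 0.1). Without HODEs replicate 1 it was 2.93 ± 1.54, with an unadjusted p of 0.107 by edgeR. In Ctrl livers Rmrp had its 8 counts in a single library. The second, longer Rmrp model over the same bases had 0 counts.

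The 7SL RNA was counted under 2 symbols for 1 sequence. Rn7s1 had 26899, 1395 and 241 counts in HODEs livers, against 704, 253 and 139 counts in Ctrl livers. HODEs replicate 3 was below Ctrl replicates 1 and 2. The fit gave Rn7s1 a log2 fold change of 4.77 ± 1.75 (SE, adjusted p = 0.649 by edgeR, exact permutation p = 0.3), and 1.10 ± 0.89 without HODEs replicate 1.

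Rn7s2 showed another order of libraries, with 148, 352 and 198 counts in HODEs livers, against 0, 39 and 26 counts in Ctrl livers. The groups did not overlap, and HODEs replicate 1 was the lowest of its group. Its log2 fold change was 3.39 ± 1.04 (SE, unadjusted p = 0.0146 and adjusted p = 0.649 by edgeR, adjusted p = 0.0347 by DESeq2, exact permutation p = 0.1), and 3.61 ± 1.15 without HODEs replicate 1. Since the sequences of Rn7s1 and Rn7s2 are identical, these separate values depend on how reads were shared between them: Rn7s2 took 0.547%, 20.1% and 45.1% of their joint counts in HODEs livers and 0%, 13.4% and 15.8% in Ctrl livers. Summed, they had 27047, 1747 and 439 counts in HODEs livers and 704, 292 and 165 counts in Ctrl livers. The sum gave a 25.4-fold ratio of mean CPM, or 2.66-fold without HODEs replicate 1, and HODEs replicate 3 lay below Ctrl replicate 1.

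Rn7s6, which shares the first part of 7SL, had 85 counts in HODEs replicate 1 and 0 in the other 5 libraries. With the Ctrl livers set together to a floor of 3 counts, its level was at least 27.2-fold higher in HODEs livers, a bound that rests on 1 library (exact permutation p = 1). Without that library no value is left. Short models annotated as miRNAs lie within the 7SL genes on the same strand. Within Rn7s1, Gm47295 and Gm47287 each had 1 count in every library (log2 fold change 0.015 for Gm47287, the one that was tested). Within Rn7s2, Gm47299 had 26, 9 and 3 counts in HODEs livers, against 0, 2 and 1 counts in Ctrl livers (log2 fold change 3.54). Beside it, Gm47305 had 1, 1 and 1 counts in HODEs livers, against 5, 21 and 13 counts in Ctrl livers (-3.55). The adjusted p was 0.649 by edgeR for both Gm47299 and Gm47305, and their directions were opposite.

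Rn7sk had 2328, 235 and 71 counts in HODEs livers, against 91, 57 and 52 counts in Ctrl livers. HODEs replicate 3 lay below Ctrl replicate 1 in counts. For Rn7sk the log2 fold change was 3.78 ± 1.28 (SE, adjusted p = 0.649 by edgeR, exact permutation p = 0.2), and 1.15 ± 0.55 with an unadjusted p of 0.0837 without HODEs replicate 1. In FPKM, Rn7sk averaged 33.5 ± 48.7 in HODEs livers and 2.49 ± 0.78 in Ctrl livers (SD, n = 3 each). No other model overlapped it on the same strand. The 6 exact permutation tests given here, for Rn7s1, Rn7s2, Rn7s6, Rn7sk, Rmrp and Rpph1, cannot reach 0.05 in this design.

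**Figure D2:**
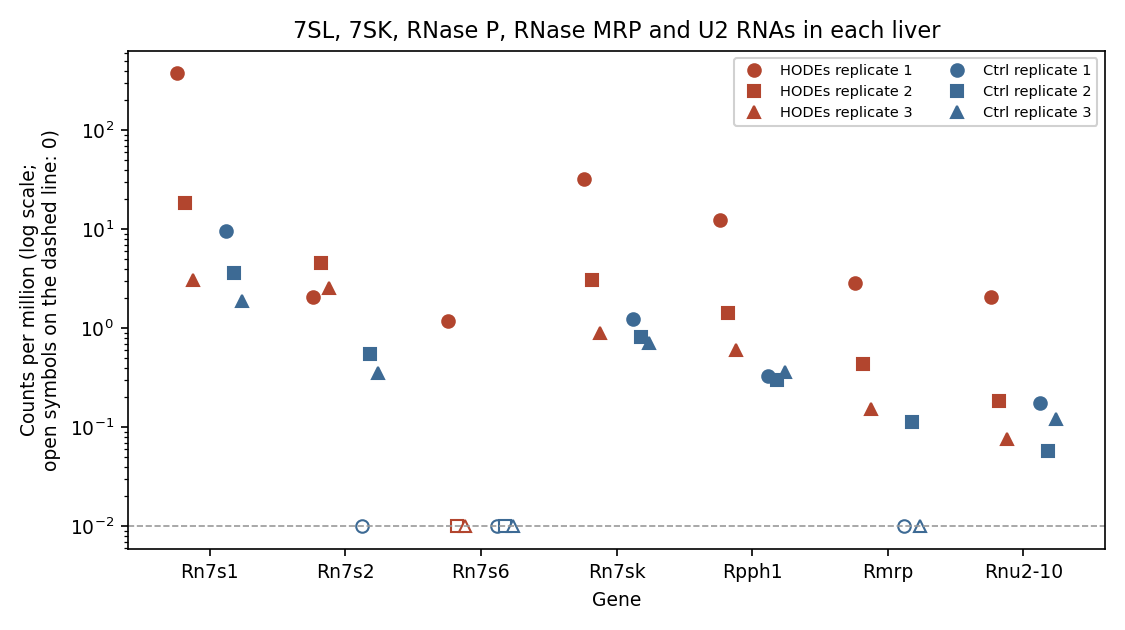
CPM (log axis) of 7SL, 7SK, RNase P, RNase MRP and U2 RNAs, with 1 symbol per liver and HODEs to the left of Ctrl for each gene. Open symbols on the dashed line are livers with 0 counts. HODEs replicate 1 is the highest liver for every gene but Rn7s2, and Rpph1, Rmrp and Rn7s2 show no overlap between groups. Rn7s1 and Rn7s2 are identical in sequence, and their sum overlaps between groups.

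Among the U RNAs, Rnu2-10 (U2) had 149, 14 and 6 counts in HODEs livers, against 13, 4 and 9 counts in Ctrl livers. Only HODEs replicate 1 lay well outside the Ctrl range. Its log2 fold change was 2.76 ± 1.26 (SE, adjusted p = 0.666 by edgeR), and 0.19 ± 0.83 without that library. Rnu1a1, a U1 gene, had 25, 3 and 1 counts in HODEs livers and 0, 4 and 0 counts in Ctrl livers.

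Many unnamed snRNA models carry the same sequences, and they were counted beside the named ones. Of those with counts, 10 were at least 90% identical to Rnu1a1 and summed to 888, 87 and 4 counts in HODEs livers, against 21, 40 and 26 counts in Ctrl livers. Another 10 copies of Rnu2-10 summed to 473, 52 and 11 counts in HODEs livers, against 42, 19 and 28 counts in Ctrl livers. The 13 copies of Rnu6, a U6 gene transcribed by RNA polymerase III, summed to 17, 15 and 10 counts in HODEs livers, against 8, 25 and 44 counts in Ctrl livers. Copies of U1 and U2 were thus highest in HODEs replicate 1 and lowest in HODEs replicate 3, and copies of U6 were not.

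The U3 genes, which take part in the first cleavages of the ribosomal RNA precursor, differed among themselves. Rnu3b1, Rnu3b2, Rnu3b3 and Rnu3b4 are identical over 216 bases and lie inside Tex14 on chromosome 11. Together they had 124, 153 and 161 counts in HODEs livers, against 187, 211 and 126 counts in Ctrl livers, and the groups overlapped. Their log2 fold changes of -0.13 to -0.39 had unadjusted p-values of 0.367 or more by edgeR. Rnu3a had 36, 8 and 7 counts in HODEs livers, against 0, 2 and 8 counts in Ctrl livers (log2 fold change 2.39 ± 1.24, SE, adjusted p = 0.685 by edgeR). Rnu3a had 1.16 ± 1.29 without HODEs replicate 1.

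**Figure D3:**
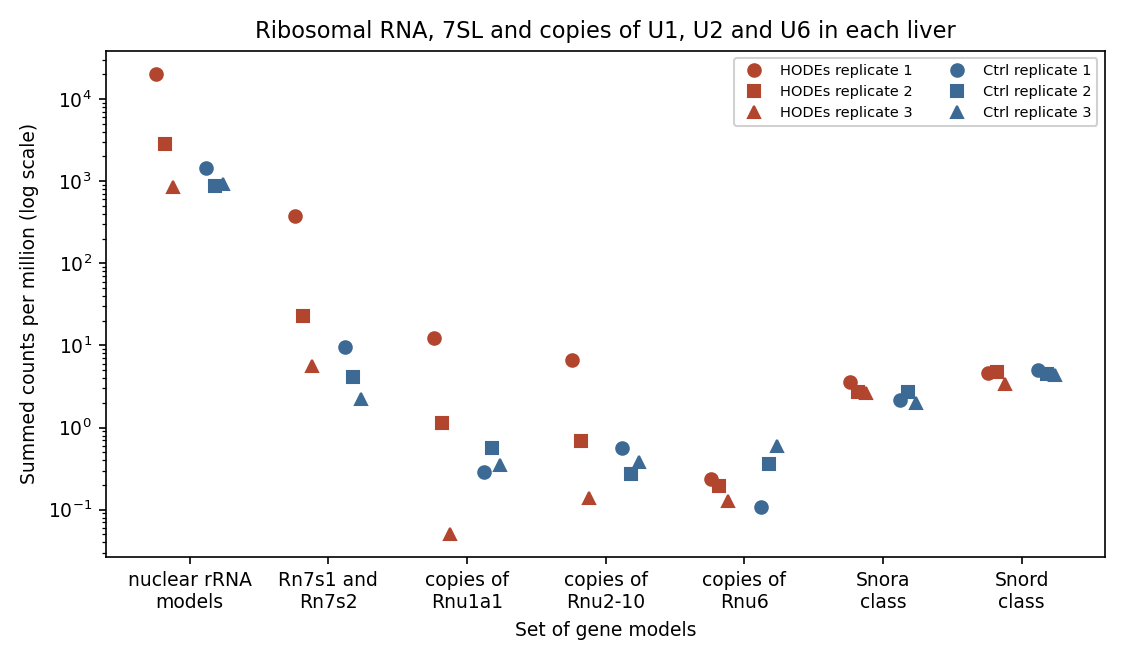
Summed CPM (log axis) of nuclear rRNA models, of Rn7s1 with Rn7s2, of unnamed copies of U1, U2 and U6, and of the Snora and Snord classes, with 1 symbol per liver and HODEs to the left of Ctrl. HODEs replicate 1 is the highest liver for rRNA (20340 CPM), 7SL (377 CPM) and the copies of U1 and U2 (12.4 and 6.60 CPM), whereas the copies of U6 are highest in Ctrl replicate 3 and the Snord class in Ctrl replicate 1.

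Of 22 Snora members tested, 18 had a log2 fold change above 0 (15 without HODEs replicate 1), and 1 had an unadjusted p under 0.05. This was Snora68, an H/ACA RNA. It had 20, 29 and 27 counts in HODEs livers, against 10, 13 and 7 counts in Ctrl livers, with no overlap and with HODEs replicate 1 the lowest of its group. Its log2 fold change was 1.32 ± 0.52 (SE, unadjusted p = 0.0391 and adjusted p = 0.649 by edgeR), and 1.44 ± 0.61 without HODEs replicate 1.

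Snora7a in Rpl32 had 13, 9 and 12 counts in HODEs livers, against 1, 1 and 7 counts in Ctrl livers. Snora34 in Kansl2 had 11, 5 and 14 counts in HODEs livers, against 0, 4 and 3 counts in Ctrl livers. These are the other Snora members without overlap between groups, at unadjusted p-values of 0.0657 and 0.0922 by edgeR, and they are named for that reason after their values were seen. Snora57, the most counted of the class, has no host and had 36, 36 and 37 counts in HODEs livers, against 25, 48 and 27 counts in Ctrl livers. Snora20 in Tcp1 had 14, 40 and 11 counts in HODEs livers, against 26, 35 and 17 counts in Ctrl livers, and Snora31 in Tpt1 had 11, 7 and 17 counts in HODEs livers, against 18, 22 and 7 counts in Ctrl livers.

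Of 37 Snord members tested, 21 had a log2 fold change above 0 and 16 below, and 0 had an unadjusted p under 0.05. The balance turned without HODEs replicate 1, with 18 above and 19 below. Snord104, the most counted, had 94, 131 and 152 counts in HODEs livers, against 136, 120 and 90 counts in Ctrl livers. Its FPKM averaged 21.3 ± 4.0 in HODEs livers and 20.4 ± 4.4 in Ctrl livers (SD, n = 3 each), and its log2 fold change was 0.13 ± 0.30 (SE, adjusted p = 0.936 by edgeR), and 0.27 ± 0.32 without HODEs replicate 1. Snord118 (U8), which is needed to process the large ribosomal RNAs, had 68, 87 and 36 counts in HODEs livers, against 114, 59 and 70 counts in Ctrl livers, and the groups overlapped.

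Snord14e in Hspa8, a heat shock protein gene, had 28, 1 and 1 counts in HODEs livers, against 12, 31 and 67 counts in Ctrl livers. HODEs replicates 2 and 3 were below all Ctrl livers, and HODEs replicate 1 was within their range. Its log2 fold change was -1.77 ± 1.29 (SE, adjusted p = 0.754 by edgeR), and -5.02 ± 1.11 with an unadjusted p of 0.00444 and an adjusted p of 0.782 without HODEs replicate 1. Hspa8 had 993, 1250 and 1268 CPM in HODEs livers, against 1090, 1212 and 998 CPM in Ctrl livers (log2 fold change 0.16 ± 0.16, SE). An exon of Hspa8 overlaps Snord14e. Snord37 in Eef2 had 5, 4 and 3 counts in HODEs livers and 1, 1 and 0 counts in Ctrl livers, and Snord21 in Rpl5 had 0, 1 and 1 counts in HODEs livers and 1, 1 and 4 counts in Ctrl livers, both named as members without overlap on the CPM scale. The counts of Snord21 tied between groups at 1, so that only the scaling to library totals parted them.

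Scarna2, a guide RNA of the Cajal body without a host gene, had 77, 66 and 33 counts in HODEs livers, against 46, 22 and 32 counts in Ctrl livers (log2 fold change 0.84 ± 0.47, SE, adjusted p = 0.693 by edgeR, and 0.55 ± 0.52 without HODEs replicate 1). Scarna13 in Snhg10 had 15, 3 and 0 counts in HODEs livers and 1, 0 and 0 counts in Ctrl livers. Scarna17 had 5, 4 and 2 counts in HODEs livers and 3, 0 and 7 counts in Ctrl livers. The Scarna groups overlapped in each case.

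Most members lay inside another gene on the same strand. This held for 100 of the 121, and 72 overlapped an exon of another model, so that spliced or unspliced reads of the host can count for the small RNA as well. In 53 members both the small RNA and its host were tested, over 43 hosts. The median log2 fold change was 0.57 for the small RNAs and 0.16 for their hosts, and 32 of the 53 pairs had the same sign. Across these pairs, which share libraries and often reads and of which several share a host, Pearson's r was 0.14. In 5 of the 53 pairs the small RNA had a mean count of at least 10. The medians of these 5 pairs were -0.30 for the small RNAs and 0.16 for their hosts. The 17 tested members outside any host had a median of 1.25, and the 11 of them other than Rn7s, Rmrp and Rpph1 a median of 0.13. These medians were 0.38 (16 members) and 0.09 without HODEs replicate 1, and that of the 58 tested members inside a host was 0.11, where it was 0.56 with all livers.

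**Figure D4:**
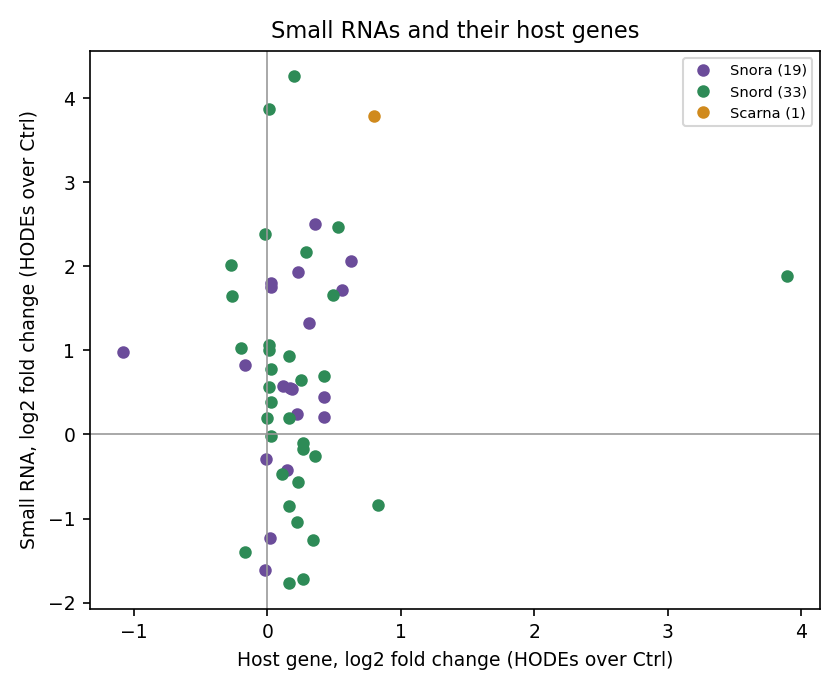
The log2 fold change (HODEs over Ctrl, edgeR) of 53 small RNAs against that of their host gene, with 1 point per small RNA coloured by class. Hosts lie mostly close to 0, with a median of 0.16, while the small RNAs spread from -1.77 to 4.26. The small RNA has a mean count of at least 10 in 5 of these pairs.

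The proteins that hold or process these RNAs were tested in the same fit. None of the tested genes of the 10 lists below had an adjusted p under 0.05 by edgeR. As a background for the lists, 7392 of all 14741 genes tested had a log2 fold change above 0. At an unadjusted p under 0.05 by edgeR, 4.08% of all genes tested were higher and 3.61% were lower. Among the 17 tested host genes without a protein, such as Gas5, 14 had a log2 fold change above 0, with a list median of 0.29 and with 4 at an unadjusted p under 0.05: Snhg11 (0.92), Snhg17 (0.70), Epb41l4aos (0.53) and Snhg12 (0.43). Snhg11 averaged 1.59 ± 0.36 CPM in HODEs livers and 0.891 ± 0.026 CPM in Ctrl livers, and Snhg17 averaged 4.05 ± 0.36 CPM in HODEs livers and 2.62 ± 0.53 CPM in Ctrl livers (SD, n = 3 each). The list median was 0.28 without HODEs replicate 1.

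The proteins of the spliceosomal snRNPs had a median of 0.01 over 33 genes. In HODEs livers Snrnp70, a U1 protein, was higher (log2 fold change 0.50 ± 0.12), as was Lsm3 of the U6 ring (0.62 ± 0.18), and Snrpb, a core protein (-0.53 ± 0.19), and Coil, the coilin of Cajal bodies (-1.61 ± 0.62), were lower, each at an unadjusted p under 0.05 and an adjusted p of 0.649 by edgeR. The 11 proteins of RNase P and MRP had a median of 0.09. Rpp38 had 0.70 ± 0.29 at an unadjusted p of 0.0477, and Rpp40 had 0.50 ± 0.31 at 0.152. The shares over all genes at an unadjusted p under 0.05, given above, were 4.08% higher and 3.61% lower.

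The other lists had 0 genes at an unadjusted p under 0.05. Medians were -0.02 for 4 C/D snoRNP proteins (lowest p for Nop56 and Fbl), -0.27 for 6 H/ACA snoRNP proteins (Dkc1 and Naf1) and 0.13 for 6 snoRNP assembly factors (Zfp593 and Pih1d1). They were 0.05 for 10 signal recognition particle genes (Srpr and Srp54a), -0.18 for 7 genes of the 7SK particle (Ccnt2 and Larp7), 0.01 for 28 genes of RNA polymerase III and its factors (Polr3d and Gtf3c2) and -0.03 for 23 genes of trimming, tailing and decay at the 3′ end (Tent4a and Exosc9). The lists of the signal recognition particle with its receptor, of the 7SK particle with P-TEFb, and of RNase P and MRP had medians between -0.18 and 0.09. Rn7s1, Rn7s2, Rn7sk, Rpph1 and Rmrp had values of 3.39 to 4.93 with all livers. These RNAs had values of 1.10 to 3.61 without HODEs replicate 1, and the medians of these protein lists lay between -0.10 and 0.14. The value of 3.61 is that of Rn7s2, which is identical in sequence to Rn7s1. Summed, these had a log2 ratio of mean CPM of 4.67 with all livers and 1.41 without HODEs replicate 1.

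Markers of the other cell types that liver RNA can hold were summed in the same libraries. Those of Kupffer cells summed to 59.1 to 81.6 CPM in HODEs livers and 58.0 to 78.4 CPM in Ctrl livers, of endothelium to 71.3 to 96.2 CPM in HODEs livers and 68.8 to 81.4 CPM in Ctrl livers, and of stellate cells to 109 to 135 CPM in HODEs livers and 108 to 119 CPM in Ctrl livers (4 of 4 detected in each). Cholangiocyte markers summed to 3.68 to 6.98 CPM in HODEs livers and 3.10 to 4.51 CPM in Ctrl livers, neutrophil markers to 1.74 to 6.59 CPM in HODEs livers and 0.569 to 2.08 CPM in Ctrl livers, and erythroid markers to 118 to 162 CPM in HODEs livers and 155 to 221 CPM in Ctrl livers. Markers of B and T cells summed to 1.95 to 2.19 CPM in HODEs livers and 1.024 to 1.88 CPM in Ctrl livers, and the 3 pancreas markers to 10.9 to 16.7 CPM in HODEs livers and 13.3 to 28.9 CPM in Ctrl livers, all of it Cela1, with Pnlip and Prss2 at 0 in every library. The 4 adipocyte markers followed the library that stood apart, with 2.31, 0.104 and 0.127 CPM in HODEs replicates 1 to 3 and 0 in all Ctrl livers. The part of these differences in the results was not tested. Mitochondrial genes took 11.8%, 11.6% and 10.5% of counts in HODEs livers, against 9.00%, 9.51% and 6.70% in Ctrl livers, and class sums on the remaining counts moved by less than the spread between livers.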

How the data were processed

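Libraries of 3 HODEs and 3 Ctrl livers were prepared from oligo(dT)-selected RNA with molecular identifiers and strand marks, and read as pairs. Per the labels, StringTie 1.3.4d, HISAT2 2.0.4 and cutadapt 1.9 were used beside UMI-tools, edgeR and DESeq2, in no stated order. The genome build is not given in the sources used here, but 54928 of 55401 starts, and all 179 models of the named series, equal GENCODE M21 (GRCm38).

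The authors deposited FPKM values and whole-number estimated counts for each model. Among single-transcript models with 1 to 50 counts, 98.9% to 99.2% of the values equalled the FPKM-derived estimate rounded up (within 0.02), so a read that overlaps a short RNA in part counts in part. The plan took the values for plain counts. They were used as deposited, without further rounding.

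Counts were tested with edgeR 4.0.16 (R 4.3.3; TMM, quasi-likelihood) on models whose FPKM averaged at least 0.1, with Benjamini-Hochberg adjustment over all 14741 genes. Of these, 3 passed 0.05. CPM are counts scaled to a library total of 1000000. DESeq2 1.42.0, limma 3.58.1 on log2(FPKM + 0.1) or log2(FPKM + 1), other filters and scalings, omission of each library and a replicate block were alternatives. The fits were tested on counts simulated from the fitted dispersion, with known changes in some genes. The simulation held no library that stood apart, no rounded-up estimates and no shared sequences, so it does not cover these features of the members. P-values set the group difference against the variation between these 6 livers. With 1 library per mouse, variation between mice and between library preparations cannot be told apart.

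The members and lists were chosen with earlier results of these data known. Members named are Rmrp, Rpph1 and the Rn7s genes with at least 10 counts, the 12 of lowest p with a mean count of at least 10, and in each class the 3 of highest level and those of lowest and highest fold change, with their hosts and the 2 genes of lowest p in each list. Other genes named were chosen after their values were seen. A host gene and some sequences are not reported here.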

Additional observations from a re-analysis of the deposited data

How the results depend on the processing

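No member had an adjusted p under 0.05 by edgeR under any filter, scaling, omitted library or block tried, nor by limma, but 2 did by DESeq2 (Rpph1, log2 fold change 3.93, and Rn7s2, 3.40), and an unadjusted p under 0.05 with the fold threshold of the study took 6. Rn7s2 is identical in sequence to Rn7s1, also among the 6, and their sum overlapped between groups. Over all genes, 3 passed by edgeR, 89 by DESeq2 and 3 to 16 when 1 library was left out. Same-numbered livers did not deviate together (correlations of 0.0070, -0.028 and -0.038), and with the replicate block 0 genes passed.

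At an unadjusted p under 0.05, leaving out 1 library gave 2 to 9 members higher and 0 to 1 lower, with 2 higher without HODEs replicate 1 and also 2 without Ctrl replicate 1. By limma on FPKM + 0.1, 1 was lower. The median over members was 0.21 with no filter, 0.17 with filterByExpr, 0.16 with limma on FPKM + 1 and 0.15 to 1.25 with 1 library left out. For Snora it was 0.23, 0.16, 0.17 and 0.34 to 1.39 in the same order, and 0.78 on member counts taken to the nearest whole estimate, an alternative chosen after seeing the data. For Snord it was -0.34 with filterByExpr, 0.51 on these nearest estimates and -0.021 to 0.74 with 1 library left out. For Rnu it was 0.93 with no filter and -0.39 to 0.20 with 1 library left out. For Rn7s it was 2.55 and 2.27 by limma on FPKM + 0.1 and FPKM + 1, and 1.15 to 4.86 with 1 library left out. The cause of these shifts was not tested.

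The log2 ratio of class sums ranged, with 1 library left out, from 1.37 to 5.23 for Rn7s, from 1.81 to 4.54 for Rmrp and Rpph1, from 0.22 to 0.53 for Snora, from -0.21 to 0.01 for Snord, from 0.37 to 1.13 for Scarna and from -0.20 to 0.43 for Rnu. For Rnu it was 2.60 without members that overlap another exon, which leaves out the U3 genes. Direction changed with 1 library left out for Snora20 (-1.01 to 0.040), Snora57 (-0.055 to 0.55), Snord104 (-0.057 to 0.27), Scarna17 (-0.35 to 1.22, and -0.25 on the nearest estimates), Rnu3b4 (-0.39 to 0.20) and Rnu3b2 (-0.47 to 0.070). Of the 121 members, 59 had under 10 counts over all libraries, and the smallest difference detectable at such a depth was not computed.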

Other observations

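Other RNAs whose names lie outside these series, not all of them without a tail, were summed in the same way. The 137 unnamed snoRNA models with counts had 6.11, 3.95 and 2.65 CPM in HODEs livers, against 1.74, 3.39 and 2.93 CPM in Ctrl livers. The 102 unnamed snRNA models had 21.4, 3.74 and 1.11 CPM in HODEs livers, against 2.04, 2.28 and 2.34 CPM in Ctrl livers. Their ratio of means was 1.98 on the log2 scale with all livers and 0.13 without HODEs replicate 1. Unnamed misc_RNA models had 4.09, 2.01 and 1.005 CPM in HODEs livers, against 1.47, 1.29 and 1.61 CPM in Ctrl livers.

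Histone genes, whose messages end in a stem-loop in place of a tail, did not share the pattern of HODEs replicate 1. The 9 Hist models had 1.88, 2.18 and 1.68 CPM in HODEs livers, against 2.62, 2.33 and 2.20 CPM in Ctrl livers, with no overlap between the groups. HODEs replicate 2 lay just below Ctrl replicate 3. Of all genes tested, 10.7% did not overlap with HODEs livers lower, and 4.93% with HODEs livers higher. Precursors of miRNAs had 43.9, 39.9 and 34.5 CPM in HODEs livers, against 38.4, 28.5 and 35.9 CPM in Ctrl livers. The mitochondrial rRNAs mt-Rnr1 and mt-Rnr2, which carry short tails, had 1702, 1742 and 1285 CPM in HODEs livers, against 1103, 1191 and 830 CPM in Ctrl livers, again without overlap.

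The telomerase RNA Terc had 5, 0 and 8 counts in HODEs livers and 4, 6 and 0 counts in Ctrl livers. The vault RNA Vaultrc5, made by RNA polymerase III, had 36, 6 and 3 counts in HODEs livers and 3, 14 and 0 counts in Ctrl livers. The Y RNA Rny3 had 4 counts in HODEs replicate 1 and 0 elsewhere. The nuclear RNAs Neat1 and Malat1 had 38.6, 31.0 and 6.95 CPM and 24.2, 20.3 and 7.89 CPM in HODEs livers, against 20.5, 24.9 and 19.2 CPM and 9.999, 12.5 and 15.6 CPM in Ctrl livers, with HODEs replicate 3 the lowest liver for both.

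Set against the rRNA of the same library, 7SK, RNase P RNA and RNase MRP RNA varied much less between HODEs livers than they did in CPM. For each 1000 rRNA counts there were 1.60, 1.08 and 1.06 Rn7sk counts in HODEs livers, against 0.849, 0.933 and 0.750 in Ctrl livers. For Rpph1 there were 0.612, 0.498 and 0.702 in HODEs livers, against 0.224, 0.344 and 0.390 in Ctrl livers, and for Rmrp 0.142, 0.152 and 0.179 in HODEs livers, against 0, 0.131 and 0 in Ctrl livers. In these 3 ratios all HODEs livers were above all Ctrl livers. The share of all genes that part in such a ratio was not computed. For Rmrp the gap is 0.142 against 0.131, and a single Ctrl library had any counts. Rn7s1 kept a wider spread, with 18.4, 6.43 and 3.60 in HODEs livers, against 6.57, 4.14 and 2.01 in Ctrl livers, and Rn7s2 had 0.101, 1.62 and 2.96 in HODEs livers, against 0, 0.638 and 0.375 in Ctrl livers. Rnu2-10 overlapped between groups, with 0.102, 0.0645 and 0.0896 in HODEs livers, against 0.121, 0.0654 and 0.130 in Ctrl livers. The snoRNA classes spread more in these ratios than in CPM, with 0.179, 0.954 and 3.06 for Snora and 0.230, 1.67 and 3.96 for Snord in HODEs livers, against 1.47, 3.09 and 2.12 for Snora and 3.45, 5.24 and 4.68 for Snord in Ctrl livers. The ratios were chosen after seeing the data and were not tested.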
